A study of Rattus norvegicus with 17 samples.

Results

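The cathepsins, the subunits of the vacuolar proton pump and the Lamp proteins of the lysosome were followed in the meibomian gland (MG) of rats with and without UVB irradiation of the eyelids. The genes were taken by name, as the rows beginning with Cts followed by 1 letter, with Atp6v, or with Lamp and a digit, that reached 1 TPM in at least 3 of the 17 rats. TPM is a measure, corrected for transcript length, of the share that a transcript takes of a sample. The name rule matched 36 rows, and 29 of them passed the limit, namely 12 cathepsins, 15 pump subunits (7 of the V1 and 8 of the V0 sector) and 2 Lamp genes, out of 13105 genes tested and 17251 listed. The 7 rows under the limit were Atp6v0d2, Atp6v1b1, Atp6v1e2, Atp6v1g2, Atp6v1g3, Lamp3 and Lamp5. The V1 subunits F and G1 were not analysed here.

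Lysosomes degrade proteins, lipids and sugars delivered by endocytosis and autophagy. The vacuolar ATPase spans their membrane, and its V1 sector hydrolyses ATP in the cytosol to turn a ring in the V0 sector that carries protons inward. The acid lumen lets cathepsins, most of them cysteine proteases and a few aspartic or serine proteases, mature and cleave their substrates, while Lamp1 and Lamp2 are the abundant glycoproteins that line the inner face of the membrane. Meibocytes, the lipid-making cells of the MG, release their lipids by breaking down as whole cells at the end of their maturation, and lysosomal enzymes are known for a part in such holocrine secretion.

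The MG was dissected from female rats aged 10 to 12 weeks. P1.hMR rats carry the human mineralocorticoid receptor gene NR3C2 under its own proximal P1 promoter, which is active in the tissues that normally use this receptor, and the WT rats were their littermates on the same Sprague-Dawley background. The Control WT group (n = 4) and the Control P1.hMR group (n = 5) were not irradiated, and in the UVB WT group (n = 3) and the UVB P1.hMR group (n = 5) the eyelids were irradiated with UVB daily for 5 days before the glands were taken. NR3C2 was listed at 0 in all WT rats and lay between 5.31 and 9.31 TPM in the P1.hMR rats, as the genotype labels say. Between 12372 and 12737 genes reached 1 TPM in each rat. No read counts are held by the deposited values, and the study's methods state mapped reads only as a range over its libraries, so the counting error of a value is not known and errors rest on how far rats of a group lay apart. The MG markers Awat2 and Soat1 reached at least 6495 and 1177 TPM in every rat. Skeletal muscle genes summed to 1416 to 3203 TPM and hair keratin genes to 285 to 1217 TPM, so the dissected tissue held more than the gland.

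Many lysosomal genes carry an E-box with the letters CACGTG near their start, the core of the element bound by the factors TFEB and TFE3, and this is why the following stretches are shown. Promoters, reaching from 250 bases before to 50 bases after the start in RefSeq's annotation of the rat build GRCr8, could be matched to 23 of the 29 genes by symbol. The letters CACGTG, which read the same on both strands, stood in 5 of these 23 promoters (21.7%) and in 2148 of all 33469 (6.42%). The longer run TCACGTGA, which contains CACGTG and is also its own reverse complement, stood in 4 of the 23 (17.4%) and in 260 of all (0.777%). Capitals mark the run TCACGTGA where it is complete and otherwise the core CACGTG, each stretch is read 5′ to 3′ on the strand of its gene, and these are matches of letters, with no binding measured here.
Lamp1, chr16:83075084-83075258, minus strand, GRCr8, 5 cores: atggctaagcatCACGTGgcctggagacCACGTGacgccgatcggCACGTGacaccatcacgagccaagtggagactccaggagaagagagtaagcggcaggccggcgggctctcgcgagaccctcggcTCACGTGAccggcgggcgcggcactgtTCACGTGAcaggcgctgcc
Ctsd, chr1:206968814-206968990, minus strand, GRCr8, 2 cores: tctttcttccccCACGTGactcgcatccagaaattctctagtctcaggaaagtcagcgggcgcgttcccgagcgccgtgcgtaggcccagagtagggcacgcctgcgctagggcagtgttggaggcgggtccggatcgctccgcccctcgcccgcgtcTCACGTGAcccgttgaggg
Atp6v0d1, chr19:50357283-50357312, minus strand, GRCr8: ccccattgtggTCACGTGAgatgcagtgcg
Atp6v0e1, chr10:17007115-17007144, minus strand, GRCr8: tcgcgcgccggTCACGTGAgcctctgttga
Ctsf, chr1:211582008-211582037, plus strand, GRCr8: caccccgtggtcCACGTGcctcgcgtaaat

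The core of Ctsd nearest to its start began 10 bases before it and that of Atp6v0d1 52 bases before it, whereas that of Atp6v0e1 began at base 25 after the start. The start listed for Lamp1 lies 7780 bases inside the annotated gene, so its 5 cores stand before an inner start. Those of Atp6v1c2, Atp6v0c and Atp6v1a, whose promoters held no core, also lie inside their genes, by 24167, 1305 and 702 bases. As described in the following paragraphs, the 5 genes with the core did not share a response to UVB. Ctsd rose and Atp6v0d1 fell in both genotypes, while Ctsf, Atp6v0e1 and Lamp1 passed the test in neither.

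The lysosomal genes were among the more abundant transcripts of the gland, with a median percentile of 88.2 when the genes tested were ranked by mean TPM. On the TPM scale, Ctsd, an aspartic protease, was the highest of the 29 at 1011 to 1518 TPM over the 17 rats. It was followed by Ctsb at 518 to 778 TPM, Lamp1 at 528 to 731 TPM and Atp6v0c, the proteolipid that forms the rotating ring, at 436 to 536 TPM. Ctsd and the cysteine proteases Ctsb and Ctsl made up 48.3%, 25.2% and 12.6% of the summed cathepsin TPM. Ctss of antigen-presenting cells (11.3 to 29.8 TPM) and Ctsk, the collagen-degrading cathepsin of osteoclasts (15.1 to 25.3 TPM), lay far under these. Ctse and Ctsw were the lowest, at 1.36 to 3.53 and 0.29 to 2.53 TPM.

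**Figure D1:**
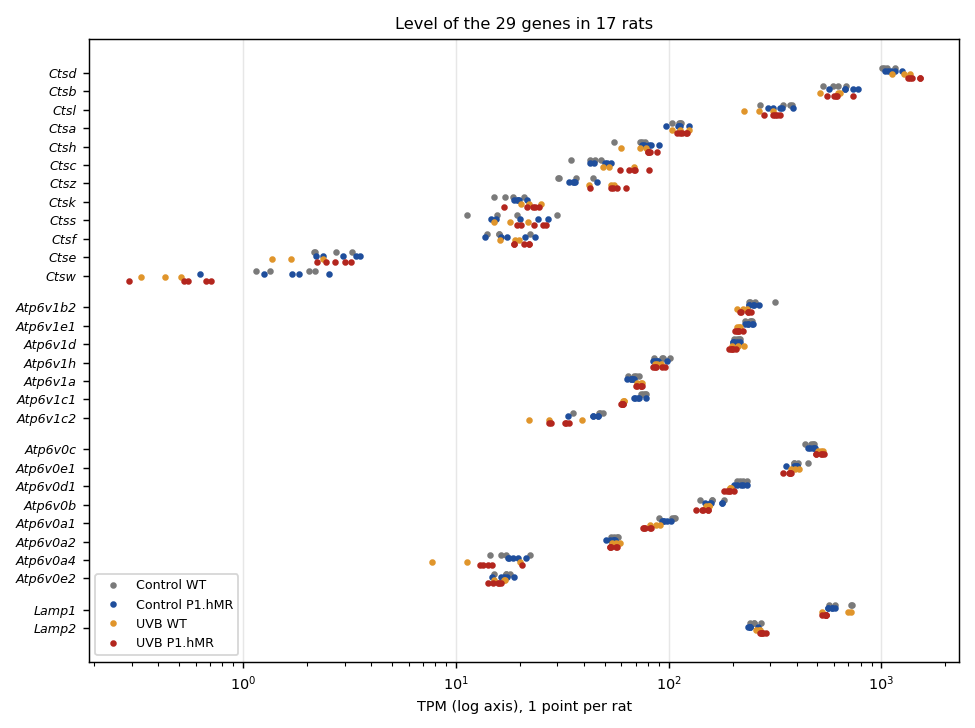
Deposited TPM (log axis) of the 29 genes, 1 point per rat, coloured by group, with cathepsins, V1 subunits, V0 subunits and Lamp genes in blocks ordered by mean level. Ctsd is highest at 1011 to 1518 TPM, and Ctsw is lowest, with control rats at 0.63 to 2.53 TPM to the right of most UVB rats at 0.29 to 0.71 TPM.

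The spread between rats differed between the families. Averaged over the 4 groups, the coefficient of variation within a group had a median of 4.89% over the 15 pump subunits, 12.4% over the 12 cathepsins and 9.18% over all genes tested. Atp6v1c1 varied least of the 29 genes, by 2.35%, and Ctsw most, by 31.4%. A small change could therefore be seen in a pump subunit that would be lost in the spread of a cathepsin.

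UVB left the summed level of the 29 genes in the same range, 5468 to 5978 TPM in the 9 control rats and 5659 to 5955 TPM in the 8 UVB rats, while single genes moved both ways. Ctsz, Ctsc and Ctsd rose and several pump subunits fell in both genotypes, in most cases by small amounts. Genes were tested with limma on log2(TPM + 1), with p-values adjusted over all 13105 genes by the Benjamini-Hochberg method. A gene is said to rise or fall where its adjusted p was under 0.05, and it was called where its log2 fold change was also at least 0.5 in size. By this rule 3 of the 29 genes were called after UVB in WT rats, where 7.91% of all genes were, and 2 of 29 in P1.hMR rats, where 10.8% of all genes were. Ctsw, which passed the limit on low values through the control rats alone, is among them, and without it 2 and 1 of 28 were called. Without the fold threshold, 11 of 29 passed in WT rats (4 higher and 7 lower, against 21.5% of all genes) and 12 of 29 in P1.hMR rats (6 higher and 6 lower, against 39.1% of all genes). Leaving out Ctsw, these were 10 and 11 of 28. The median log2 fold change of the 29 genes was -0.038 for WT and -0.060 for P1.hMR, beside 0.0054 and -0.016 over all genes tested.

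Markers of several cell types moved with UVB as well. Macrophage markers summed to 76.4 to 135 TPM in control rats and 135 to 262 TPM in UVB rats. None of the 10 listed lay at 0 in every rat. Of the 9 tested, 6 were called higher in each genotype, beside 514 (WT) and 662 (P1.hMR) of the 13105 genes. By sign, 9 were higher in WT and 7 in P1.hMR rats. Csf1r and Adgre1 were lower in the latter. Their means were 14.4 and 1.30 TPM for Control P1.hMR and 13.3 and 1.00 TPM for UVB P1.hMR. Mast cell markers summed to 29.8 to 42.4 TPM in control rats and 48.9 to 83.6 TPM in UVB rats, and the 7 meibocyte markers to 14661 to 19010 TPM in control rats and 12334 to 14388 TPM in UVB rats. Most of the meibocyte sum was Awat2, called lower in both genotypes, whereas Elovl3 of the same list was called higher in both, and by sign alone 4 of the 7 were higher in each genotype. Hair keratin genes were called lower in 5 of 6 tested in each genotype, beside 522 (WT) and 748 (P1.hMR) of the 13105 genes. The part of these changes in the values of the lysosomal genes was not tested, and in bulk tissue fewer cells of a type cannot be told apart from less RNA per cell.

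**Figure D2:**
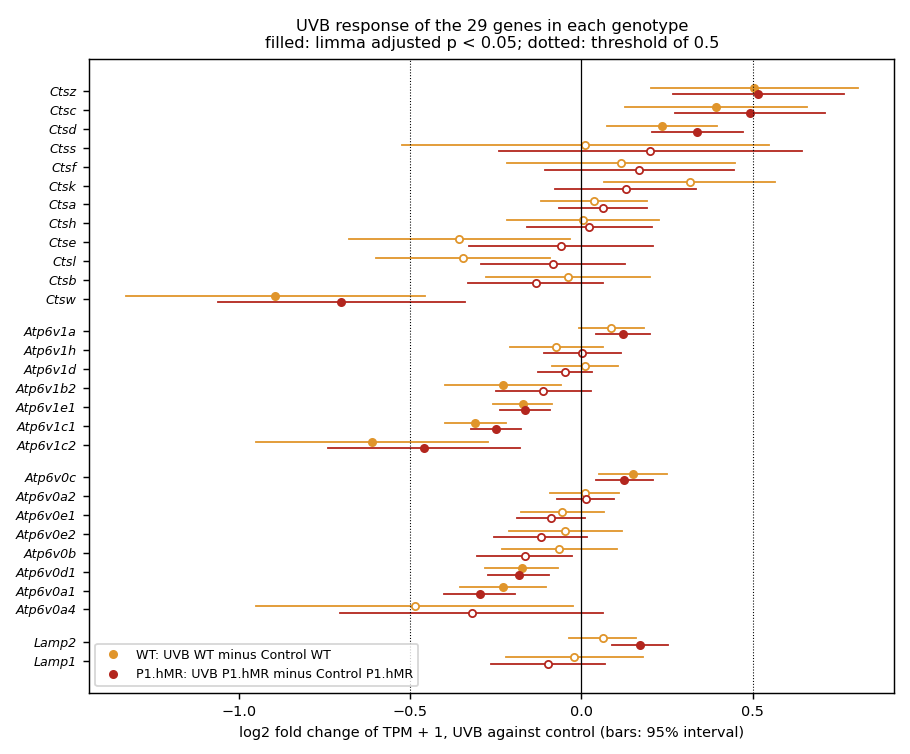
Log2 fold change of TPM + 1 for UVB against control, with its 95% interval, for the 29 genes in WT (orange) and P1.hMR rats (red), filled where the adjusted p of limma is under 0.05, with dotted lines at the threshold of 0.5 in size. Ctsz lies at 0.51 and 0.52, and Ctsw, which passed the limit on low values through the control rats alone, at -0.89 and -0.70 in WT and P1.hMR rats. Atp6v1c2 lies at -0.61 in WT rats, and all other points, including that of Atp6v1c2 in P1.hMR rats at -0.46, lie inside the dotted lines.

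Of the 11 cathepsins other than Ctsw, 3 rose and 0 fell in each genotype, beside 11.2% of all genes higher and 10.3% lower in WT and 18.5% higher and 20.6% lower in P1.hMR rats. Ctsz, a cysteine protease that trims residues from the end of proteins and is plentiful in macrophages, was at 30.1, 36.8, 30.6 and 44.1 TPM for Control WT and at 53.7, 42.4 and 55.1 TPM for UVB WT. In P1.hMR rats it was at 35.8, 36.5, 33.9, 45.9 and 35.7 TPM for Control P1.hMR and at 53.4, 42.9, 54.8, 57.1 and 63.2 TPM for UVB P1.hMR. The groups overlapped in both genotypes, through 1 high control rat in each. The shift on the log2 scale was 0.51 (95% interval 0.20 to 0.81, adjusted p = 0.0192) for WT and 0.52 (0.27 to 0.77, adjusted p = 0.00267) for P1.hMR. These values lay just inside the fold threshold, and in WT rats the call was lost without Control WT 1, Control WT 3, UVB WT 1 or UVB WT 3 (log2 fold change 0.44 to 0.46), with only the groups compared, or with hair keratin and skeletal muscle levels as covariates. In each of these settings except that without Control WT 1, the adjusted p of limma was also above 0.05, at most 0.133. In P1.hMR rats the fold came to 0.46 to 0.496, just under the threshold, without Control P1.hMR 3, UVB P1.hMR 4 or UVB P1.hMR 5, with the adjusted p under 0.05 in each case.

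Ctsc, the dipeptidyl peptidase that activates the serine proteases of immune cell granules, those of mast cells included, was at 34.9, 42.9, 48.4 and 44.9 TPM for Control WT and at 52.3, 49.2 and 68.7 TPM for UVB WT. It was at 42.9, 51.2, 44.8, 53.5 and 50.1 TPM for Control P1.hMR and at 69.3, 59.1, 65.3, 80.6 and 69.2 TPM for UVB P1.hMR. All UVB rats lay above all control rats of their genotype, as did 14% of all genes for WT and 13.2% for P1.hMR. Its log2 fold change was 0.39 (0.13 to 0.66, adjusted p = 0.034) for WT and 0.49 (0.27 to 0.71, adjusted p = 0.00145) for P1.hMR, the value nearest to the threshold from outside. In P1.hMR rats Ctsc was called without Control P1.hMR 2, 4 or 5 and without UVB P1.hMR 2 or 3, and in WT rats its adjusted p came above 0.05 without Control WT 1, Control WT 2 or UVB WT 3.

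Ctsd, the main aspartic protease of the lysosome and the highest of the 29 genes, was at 1156, 1011, 1065 and 1035 TPM for Control WT and at 1126, 1285 and 1364 TPM for UVB WT. In P1.hMR rats it was at 1247, 1044, 1074, 1162 and 1116 TPM for Control P1.hMR and at 1342, 1363, 1518, 1392 and 1516 TPM for UVB P1.hMR. The P1.hMR groups did not overlap, as in 13.2% of all genes in this direction, whereas in WT rats UVB WT 1 lay below the highest control rat. The log2 fold change of 0.34 (0.21 to 0.47, adjusted p = 0.000539) in P1.hMR rats passed under every alternative tried. In WT rats it was 0.24 (0.076 to 0.40, adjusted p = 0.0353) and was lost without Control WT 2, 3 or 4 or UVB WT 2 or 3, and also with no filter on low values, with only the groups compared and with hair keratin and skeletal muscle levels as covariates. The share of Ctsd in the summed cathepsin TPM was 45.7% ± 2.56 (SD, n = 4) in Control WT and 50.9% ± 3.93 (SD, n = 3) in UVB WT rats, and 45.4% ± 2.49 (SD, n = 5) in Control P1.hMR and 51.8% ± 2.43 (SD, n = 5) in UVB P1.hMR rats.

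Ctsw, a cysteine protease of natural killer and cytotoxic T cells, was the lowest cathepsin. It was at 1.15, 1.34, 2.17 and 2.05 TPM for Control WT and at 0.43, 0.33 and 0.51 TPM for UVB WT, with no overlap. It was at 0.63, 1.26, 1.69, 2.53 and 1.83 TPM for Control P1.hMR and at 0.67, 0.55, 0.29, 0.71 and 0.53 TPM for UVB P1.hMR, where Control P1.hMR 1 lay among the UVB rats. Ctsw reached 1 TPM in 8 of the 9 control rats and in no UVB rat, so it passed the limit on low values only through the groups in which it was high. A lower value after UVB was thus built into its being tested, and no p is given for it here. Other markers of these cells were also low, with 0 to 1.17 TPM for Nkg7 and 0.04 to 0.44 TPM for Prf1 over the 17 rats. The T cell genes Cd3e, Cd3g and Cd3d lay at 0.74 to 3.29, 0.79 to 3.46 and 0.12 to 0.86 TPM. Cd3e and Cd3g reached up to 1.92 and 3.46 TPM in UVB WT rats and up to 1.88 and 2.99 TPM in UVB P1.hMR rats. Their list summed to 3.33 to 7.95 TPM in control and 3.41 to 9.97 TPM in UVB rats, and Cd8a, also of the list, lay at 0.18 to 0.64 TPM in the 9 control rats and at 1.08 to 4.82 TPM in the 8 UVB rats, through which alone it passed the limit.

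The other 8 cathepsins passed the test in neither genotype. Ctsb, the second highest, was at 534, 596, 629 and 681 TPM for Control WT and at 642, 518 and 623 TPM for UVB WT. It was at 678, 778, 565, 737 and 676 TPM for Control P1.hMR and at 619, 553, 602, 737 and 615 TPM for UVB P1.hMR, and all of these ranges overlapped. The interval of its UVB response was -0.28 to 0.20 for WT and -0.33 to 0.065 for P1.hMR on the log2 scale. Ctsl, a cysteine protease that is broadly used, came close in WT rats, with a log2 fold change of -0.34 (adjusted p = 0.0505), against -0.082 (adjusted p = 0.543) in P1.hMR rats. Ctss, which processes the invariant chain in antigen-presenting cells, had wide intervals of -0.52 to 0.55 and -0.24 to 0.64, beside the rise of most but not all macrophage markers. The log2 fold changes of Ctsa, Ctse, Ctsf, Ctsh and Ctsk, a serine carboxypeptidase, an aspartic protease and 3 cysteine proteases, lay between -0.36 and 0.32 in both genotypes.

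**Figure D3:**
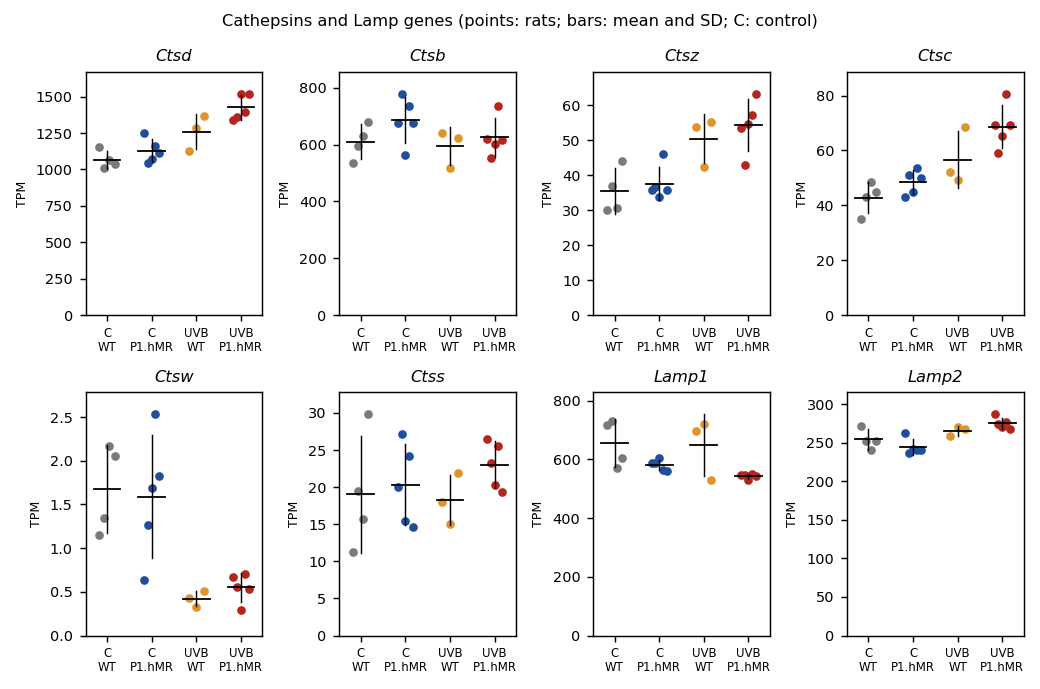
TPM of 6 cathepsins, Lamp1 and Lamp2 in each rat (points), with the group mean (horizontal bar) and SD (vertical bar) for the 4 groups, on axes from 0. Ctsc, Ctsd and Ctsz are higher and Ctsw is lower in UVB than in control rats of each genotype, and Lamp1 shows 2 rats between 697 and 731 TPM in each WT group.

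Of the 15 pump subunits, 1 rose and 6 fell in WT rats and 2 rose and 5 fell in P1.hMR rats, against 11.2% of all genes higher and 10.3% lower in WT and 18.5% higher and 20.6% lower in P1.hMR rats. Only Atp6v1c2 in WT rats passed the fold threshold. Their median log2 fold change was -0.073 for WT and -0.12 for P1.hMR. The summed TPM of the 7 V1 subunits was 926 to 1038 in control and 856 to 927 in UVB rats, and that of the 8 V0 subunits 1359 to 1515 in control and 1374 to 1454 in UVB rats.

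Subunit C of the V1 sector clamps the stalks of the pump and takes part in its reversible assembly. Its broadly used form Atp6v1c1 was at 74.1, 77.3, 78.1 and 75.8 TPM for Control WT and at 61.7, 60.9 and 61.5 TPM for UVB WT. It was at 72.01, 78.4, 72.5, 68.7 and 69.5 TPM for Control P1.hMR and at 61.3, 60.5, 60.9, 60.4 and 59.5 TPM for UVB P1.hMR. All 9 control rats, from 68.7 TPM up, lay above all 8 UVB rats, up to 61.7 TPM. Within a genotype, 12.6% (WT) and 14% (P1.hMR) of all genes were so parted in this direction. This fall passed under every alternative tried in both genotypes. The log2 fold change was -0.31 (-0.40 to -0.22, adjusted p = 0.000213) for WT and -0.25 (-0.32 to -0.17, adjusted p = 5.58e-05) for P1.hMR.

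Atp6v1c2, the form of subunit C known from epithelia such as those of lung and kidney, was at 35.4, 46.9, 49.1 and 47.8 TPM for Control WT and at 27.5, 22.03 and 39.1 TPM for UVB WT. It was at 44.01, 46.7, 46.6, 43.97 and 33.8 TPM for Control P1.hMR and at 27.9, 33.1, 33.96, 32.5 and 27.3 TPM for UVB P1.hMR. The groups overlapped in both genotypes, because Control WT 1 and Control P1.hMR 5 were low and UVB WT 3 was high. The shift on the log2 scale was -0.61 (-0.95 to -0.27, adjusted p = 0.0129) for WT and -0.46 (-0.74 to -0.18, adjusted p = 0.0115) for P1.hMR, just outside the fold threshold. Without UVB WT 2 the WT value came to -0.43 (adjusted p = 0.0792), with the covariates named for Ctsz it was -0.32 (adjusted p = 0.471), and without Control P1.hMR 5 the gene was called in P1.hMR rats. Atp6v1c2 made up 36.8% ± 3.03 (SD, n = 4) of the summed TPM of subunit C in Control WT and 32.1% ± 6.27 (SD, n = 3) in UVB WT rats, and 37.2% ± 2.62 (SD, n = 5) in Control P1.hMR and 33.8% ± 2.22 (SD, n = 5) in UVB P1.hMR rats. These shares were not tested.

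Atp6v1e1, a subunit of the outer stalk, also parted the 9 control rats, at 229 to 249 TPM, from the 8 UVB rats, at 204 to 223 TPM. Its log2 fold change was -0.17 (adjusted p = 0.00794) for WT and -0.16 (adjusted p = 0.00123) for P1.hMR. Within a genotype, 12.6% (WT) and 14% (P1.hMR) of all genes lay lower after UVB without overlap. Atp6v1b2, which forms the nucleotide-binding head with the catalytic subunit Atp6v1a, fell in WT rats (-0.23, adjusted p = 0.0499), a value that passed in 6 of 26 alternatives, and Control WT 1 stood highest at 316 TPM. Atp6v1a itself rose in P1.hMR rats (0.12, adjusted p = 0.0161), with 0.087 (adjusted p = 0.179) in WT rats. Atp6v1d of the rotor and Atp6v1h, which regulates the ATPase, passed in neither genotype, with log2 fold changes between -0.073 and 0.0097.

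In the V0 sector the ring proteolipid Atp6v0c rose while subunits d and a1 fell. Atp6v0c was at 478, 467, 485 and 436 TPM for Control WT and at 502, 519 and 532 TPM for UVB WT. It was at 486, 481, 450.2, 478 and 463 TPM for Control P1.hMR and at 493, 494, 522, 529 and 536 TPM for UVB P1.hMR. All 8 UVB rats lay above all 9 control rats. Within a genotype, 14% (WT) and 13.2% (P1.hMR) of all genes were so parted in this direction. The log2 fold change was 0.15 (0.051 to 0.25, adjusted p = 0.0316) for WT and 0.13 (0.043 to 0.21, adjusted p = 0.0179) for P1.hMR. The direction held in all 26 alternatives, and the adjusted p stayed under 0.05 in 18 of them in WT and 23 in P1.hMR rats, being lost in both under quantile normalization and with the covariates named for Ctsz.

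Atp6v0d1, which couples the ring to the central stalk, lay at 204 to 235 TPM in the 9 control rats and at 183 to 203 TPM in the 8 UVB rats. Its log2 fold change was -0.17 (adjusted p = 0.0224) for WT and -0.18 (adjusted p = 0.00267) for P1.hMR. The shares of all genes parted in this direction are those given for Atp6v1c1. Subunit a anchors the pump and its forms direct it to different membranes. The most abundant form, Atp6v0a1, was at 106, 107, 104 and 90.2 TPM for Control WT and at 87.4, 90.7 and 81.9 TPM for UVB WT. It was at 98.8, 94.3, 103, 93.6 and 95.1 TPM for Control P1.hMR and at 82.4, 76.7, 81.7, 77.3 and 75.6 TPM for UVB P1.hMR, without overlap in P1.hMR rats and with 1 control rat among the UVB rats in WT. Its log2 fold change was -0.23 (-0.35 to -0.10, adjusted p = 0.0119) for WT and -0.30 (-0.40 to -0.19, adjusted p = 0.000215) for P1.hMR, and the latter passed under every alternative tried. In P1.hMR rats 14% of all genes lay lower after UVB without overlap.

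Among the forms of subunit a, Atp6v0a1 made up 51.6% of their summed TPM over the 17 rats, Atp6v0a2 31.5%, Atp6v0a4, the form of acid-secreting epithelial cells, 9.34%, and Tcirg1, the a3 form known from osteoclasts, 7.64%. The share of Atp6v0a1 was 54.2% ± 2.07 (SD, n = 4) in Control WT, 50.8% ± 2.54 (SD, n = 3) in UVB WT, 53.1% ± 1.74 (SD, n = 5) in Control P1.hMR and 48.4% ± 1.86 (SD, n = 5) in UVB P1.hMR rats. Atp6v0a2 passed in neither genotype, with intervals of -0.09 to 0.11 and -0.07 to 0.10 on the log2 scale. Atp6v0a4 had the widest intervals of the pump, -0.95 to -0.023 for WT and -0.70 to 0.064 for P1.hMR, and was at 11.3, 7.69 and 20.1 TPM for UVB WT. Tcirg1, whose name is outside the rule, had log2 fold changes of 0.21 and 0.19 (adjusted p = 0.27 and 0.19).

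The small membrane subunit e was almost entirely Atp6v0e1, at 95.9% of the summed TPM, with 4.05% for Atp6v0e2. Atp6v0e1, the second highest of the pump genes, was at 451, 407, 389.9 and 388 TPM for Control WT and at 394, 409.6 and 375 TPM for UVB WT. It was at 403, 402, 394, 391 and 358 TPM for Control P1.hMR and at 374, 370.3, 373, 344 and 369 TPM for UVB P1.hMR. The UVB and control rats overlapped in both genotypes. Atp6v0e1, Atp6v0e2 and the ring subunit Atp6v0b passed in neither genotype, with log2 fold changes between -0.17 and -0.046.

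**Figure D4:**
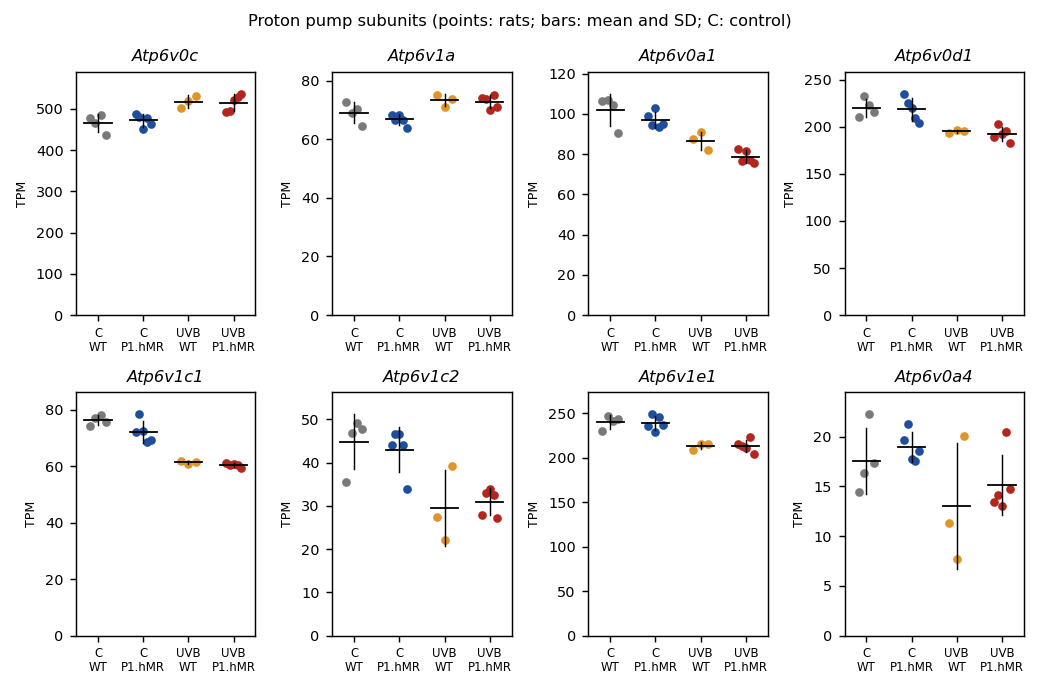
TPM of 8 pump subunits in each rat (points), with the group mean (horizontal bar) and SD (vertical bar) for the 4 groups, on axes from 0. Atp6v1c1, Atp6v1e1 and Atp6v0d1 are lower and Atp6v0c is higher in all 8 UVB rats than in any control rat, and the differences are small beside the level. Within a genotype, 12.6% (WT) and 14% (P1.hMR) of all genes lay lower without overlap, and 14% and 13.2% higher.

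Lamp1 and Lamp2 differed in their pattern over the rats. Lamp2, which has forms for the lysosomal membrane and for chaperone-mediated autophagy, was at 272, 252, 240.2 and 253 TPM for Control WT and at 259, 270.4 and 267 TPM for UVB WT. It was at 263, 237, 242, 241 and 241 TPM for Control P1.hMR and at 287, 275, 271, 277 and 268 TPM for UVB P1.hMR. Lamp2 rose in P1.hMR rats (log2 fold change 0.17, 0.09 to 0.25, adjusted p = 0.00224), whose groups did not overlap, as in 13.2% of all genes in this direction. In WT rats its log2 fold change was 0.062 (-0.036 to 0.16, adjusted p = 0.359). The difference between these responses, tested as the interaction, was 0.11 (-0.018 to 0.24, adjusted p = 0.758).

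Lamp1 was at 718, 731, 569.6 and 604 TPM for Control WT and at 697, 720.5 and 529 TPM for UVB WT. It was at 589, 588, 604, 564 and 561 TPM for Control P1.hMR and at 547, 547, 528, 549 and 544 TPM for UVB P1.hMR. The first and second rats of both WT groups stood at 697 to 731 TPM and the other 13 rats at 528 to 604 TPM, so the WT groups were wide and the P1.hMR groups narrow. Lamp1 passed the test after UVB in neither genotype (log2 fold change -0.021, -0.22 to 0.18, in WT and -0.10, -0.26 to 0.068, in P1.hMR rats). Its P1.hMR groups nevertheless did not overlap, as in 14% of all genes in this direction.

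No difference between P1.hMR and WT rats passed the test in any of the 29 genes. Under UVB, limma called 0 of the 29, with 0.0229% of all genes called, and 6 of 29 had an unadjusted p under 0.05, beside 10.3% of all genes. The 6 were Ctsd, Ctsc, Ctsh and Ctse with higher values and Lamp1 and Atp6v0a1 with lower values in P1.hMR rats. Ctsd was at 1126, 1285 and 1364 TPM for UVB WT and at 1342, 1363, 1518, 1392 and 1516 TPM for UVB P1.hMR, a log2 difference of 0.18 (0.03 to 0.34, adjusted p = 0.395). The widest difference in each direction was 0.42 (0.11 to 0.72, adjusted p = 0.343) for Ctse and -0.24 (-0.43 to -0.051, adjusted p = 0.372) for Lamp1, the latter with UVB WT 3 inside the range of the UVB P1.hMR rats. By the sign of the estimate alone, 11 of the 12 cathepsins were higher and 11 of the 15 pump subunits lower in P1.hMR rats under UVB, where 5700 of the 13105 genes were higher. Ctsh lay higher and Atp6v0e1 lower in every UVB P1.hMR rat than in every UVB WT rat, as 5.87% of all genes did in either direction.

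Without UVB, limma again called 0 of 29, with 0.00763% of all genes called, and 2 of 29 had an unadjusted p under 0.05, beside 4.03% of all genes. These were Ctsh (log2 difference 0.21, 0.016 to 0.40) and Atp6v1c1 (-0.08, -0.16 to -0.0017). The split by sign resembled that under UVB. In P1.hMR rats 10 of the 12 cathepsins were higher and 12 of the 15 pump subunits lower, where 6402 of the 13105 genes were higher. The interaction of genotype and UVB, which asks whether the UVB response differed between the genotypes, gave 0 calls among the 29 and among all genes. At an unadjusted p under 0.05 it gave 0 of 29, beside 6.92% of all genes. A UVB response that passed in 1 genotype alone, as for Atp6v1b2, Atp6v1a and Lamp2, was therefore not shown to differ between them. The interval of the interaction was -0.056 to 0.18 for Atp6v1c1, -0.11 to 0.31 for Ctsd and -0.38 to 0.40 for Ctsz on the log2 scale.

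The partners of these genes were taken from 6 lists, in which 105 of 124 genes could be tested. After UVB, 3, with Stfa2l1 among them, were called higher and 4 lower in each genotype, beside 7.91% of all genes called in WT and 10.8% in P1.hMR rats. At the adjusted p alone 11 rose and 20 fell in WT and 15 rose and 31 fell in P1.hMR rats. The share of all genes at the adjusted p alone was 21.5% for WT and 39.1% for P1.hMR, and the median log2 fold change of the 105 genes was -0.049 and -0.042.

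Of the inhibitors of cysteine cathepsins, 3 of the 5 tested fell in each genotype, and Cst6 fell most of all genes in the 6 lists. Cst6, cystatin E/M, an inhibitor of Ctsl and of legumain in skin, was at 2203, 3489.7, 3677 and 3273 TPM for Control WT and at 1489, 852 and 1595 TPM for UVB WT. It was at 3301, 3858, 2955, 3954 and 2973 TPM for Control P1.hMR and at 1152, 1248, 1178, 1164 and 1103 TPM for UVB P1.hMR, so that every UVB rat lay below every control rat. UVB moved it on the log2 scale by -1.29 (-1.700 to -0.89, adjusted p = 0.000385) for WT and -1.53 (-1.87 to -1.196, adjusted p = 4.72e-06) for P1.hMR. Within a genotype, 12.6% (WT) and 14% (P1.hMR) of all genes lay lower without overlap. Cst3, cystatin C, the secreted inhibitor found in most body fluids, fell by less (-0.38 and -0.42, adjusted p = 0.0453 and 0.00499), as did Cstb, the inhibitor inside cells (-0.27 and -0.20, adjusted p = 0.0207 and 0.0221).

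Stfa2l1, a stefin, was at 0, 0, 0 and 0.54 TPM for Control WT and at 0.54, 14.1 and 9.79 TPM for UVB WT. It was at 0, 1.24, 0, 0 and 0 TPM for Control P1.hMR and at 4.43, 7.71, 24.8, 16.97 and 15.2 TPM for UVB P1.hMR. It reached 1 TPM in 1 of the 9 control rats and 7 of the 8 UVB rats, so it passed the limit on low values only through the UVB rats, and no fold change is given. The gene belongs to a family of near-identical copies, so reads could have been split among them, and UVB WT 1, at 0.54 TPM, did not exceed the highest Control WT rat. The 5 tested cystatins summed to 3499 to 5582 TPM in control and 1999 to 2918 TPM in UVB rats, of which Cst6 made up 63% to 70.8% in control and 42.6% to 56.4% in UVB rats. Lgmn, legumain, which processes cathepsins to their mature chains, did not pass (-0.10 to 0.53 and -0.11 to 0.41).

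Of the 36 hydrolases tested, 6 rose and 7 fell in WT and 6 rose and 12 fell in P1.hMR rats, beside the shares of all genes given for the cathepsins. Gusb, beta-glucuronidase, rose most and was called in both genotypes. It was at 30.6, 32.5, 27.4 and 32.2 TPM for Control WT and at 42.04, 47.7 and 47.4 TPM for UVB WT. It was at 33.7, 29.5, 27.1, 28.1 and 29.6 TPM for Control P1.hMR and at 56.04, 52.6, 51.6, 55.3 and 57.3 TPM for UVB P1.hMR, so that every UVB rat lay above every control rat, with log2 fold changes of 0.56 (0.41 to 0.72, adjusted p = 0.000158) and 0.86 (0.73 to 0.99, adjusted p = 1.67e-07). Within a genotype, 14% (WT) and 13.2% (P1.hMR) of all genes lay higher without overlap. Glb1, the beta-galactosidase that Ctsa protects, rose by 0.33 and 0.42 (adjusted p = 0.00408 and 5.48e-05), and Gla, an alpha-galactosidase, by 0.40 and 0.41 (adjusted p = 0.00249 and 0.000149).

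Manba, beta-mannosidase, was called lower in both genotypes. Manba was at 16.01 ± 2.08 TPM (SD, n = 4) for Control WT and 10.8 ± 1.01 TPM (SD, n = 3) for UVB WT, and at 14.8 ± 1.18 TPM (SD, n = 5) for Control P1.hMR and 9.74 ± 1.36 TPM (SD, n = 5) for UVB P1.hMR. Its log2 fold changes were -0.53 (adjusted p = 0.00415) and -0.57 (adjusted p = 0.000205). Galns, a sulfatase of keratan sulfate breakdown, was called lower in P1.hMR rats (-0.64, adjusted p = 0.000609) and fell by less than the threshold in WT rats (-0.47, adjusted p = 0.0312). Ppt1, a palmitoyl-protein thioesterase, was called lower in WT rats (-0.53, adjusted p = 0.00769) and fell in P1.hMR rats (-0.39, adjusted p = 0.00708).

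**Figure D5:**
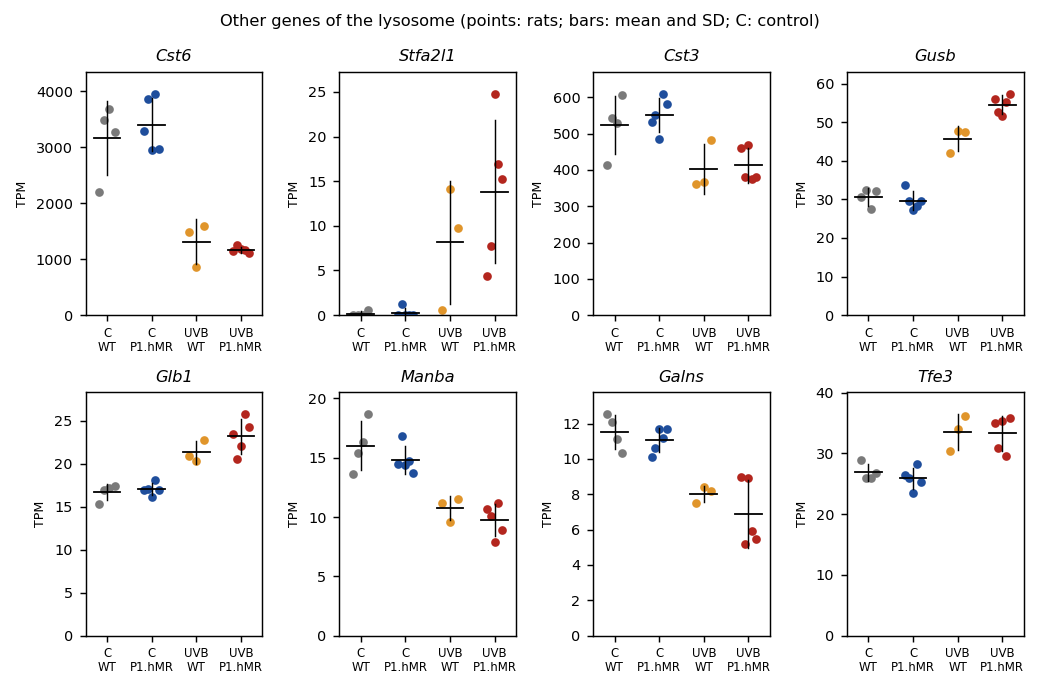
TPM of 8 further lysosomal genes in each rat (points), with the group mean (horizontal bar) and SD (vertical bar) for the 4 groups, on axes from 0. Cst6, Cst3, Manba and Galns are lower and Stfa2l1, Gusb, Glb1 and Tfe3 are higher on average in UVB than in control rats of each genotype.

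Of the 21 membrane proteins of the lysosome tested, 2 rose and 6 fell in WT and 3 rose and 7 fell in P1.hMR rats. The shares of all genes are those given for the cathepsins. Abcb9, a peptide transporter, was called higher in WT rats (0.55, adjusted p = 0.0247) with 0.20 (adjusted p = 0.257) in P1.hMR rats. Laptm5, a protein of blood cell lysosomes, was called higher in P1.hMR rats (0.66, adjusted p = 0.00605) with 0.47 (adjusted p = 0.112) in WT rats. Cd68, a lysosomal glycoprotein that is high in macrophages, had values of -0.36 and -0.29 and did not pass (adjusted p = 0.159 and 0.138), while the macrophage surface receptor Cd163 was called higher (2.55 and 2.66, adjusted p = 4.97e-05 and 1.48e-06). Npc2, which hands cholesterol to the membrane, rose by 0.48 and 0.31 (adjusted p = 0.0207 and 0.0419).

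No accessory factor of the pump, sorting factor or regulator was called in either genotype. Of the 11 accessory factors tested, 0 rose and 1 fell in WT and 3 rose and 2 fell in P1.hMR rats. The accessory subunits Atp6ap1 and Atp6ap2 passed in neither, with intervals of -0.14 to 0.024 and -0.093 to 0.044 for the first and -0.24 to 0.14 and -0.21 to 0.11 for the second. Of 17 sorting genes, 1 rose in each genotype, while 2 fell in WT and 4 fell in P1.hMR rats. The shares of all genes given for the cathepsins apply here too. The gene that rose was M6pr, the cation-dependent receptor that delivers hydrolases to the lysosome (0.15 and 0.17, adjusted p = 0.0173 and 0.00127).

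Of 15 regulators, 1 rose in each genotype, 1 fell in WT and 3 fell in P1.hMR rats. Tfe3, one of the factors known to bind the E-box CACGTG, rose by 0.30 (0.14 to 0.47, adjusted p = 0.0118) and 0.35 (0.21 to 0.49, adjusted p = 0.000531). Its binding to the promoters shown was not measured. Mitf, of the same family, fell by 0.40 and 0.36 on the log2 scale (adjusted p = 0.0108 and 0.00308), beside melanocyte markers that also use Mitf and of which 3 of 4 in WT rats and 0 of 4 in P1.hMR rats were called lower. Of all 13105 genes, 522 in WT and 748 in P1.hMR rats were called lower. Tfeb was at 49.7 ± 4.63 TPM (SD, n = 4) for Control WT and 49.6 ± 3.22 TPM (SD, n = 3) for UVB WT, and at 48.7 ± 4.50 TPM (SD, n = 5) for Control P1.hMR and 43.9 ± 3.44 TPM (SD, n = 5) for UVB P1.hMR, and did not pass (adjusted p = 0.998 and 0.115).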

How the data were processed

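RNA from the MG of 17 rats was sequenced as bulk tissue, with 1 column of values per rat. According to the study's methods, reads were checked with FastQC, aligned to rn7 with STAR 2.5.3 and quantified with RSEM 1.2.28, whereas the submitters' processing notes name FastQC, Trimmomatic, DRAGEN and Picard with rn7. Which of these made the table could not be settled. The authors deposited TPM, a unit normalized for transcript length and library size, written with a decimal comma for 17251 genes, which summed to 804378 to 840817 per rat. The methods state DESeq2 for the comparisons, which needs counts, and it was not run on these values. TPM keeps no counts, and the methods state mapped reads only as a range over the libraries, so the counting error of a value is not known.

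Rats were grouped by their labels, which name no batch. Values were analysed as log2(TPM + 1) for 13105 genes, those at 1 TPM or more in 3 or more rats, with limma 3.58.1 in R 4.3.3, in 1 model with 4 group means and a variance trend. P-values are two-sided and adjusted by the Benjamini-Hochberg method over all genes tested, and a gene was called where its adjusted p was under 0.05 and its log2 fold change was 0.5 or more in size, the limits of the study's methods. Of the 5 comparisons, 2 set UVB against control in WT or P1.hMR rats, 2 set P1.hMR against WT with or without UVB, and the last was their interaction. The fit was checked on simulated data in which known genes had been changed. Python 3.11.15 with pandas 2.3.3, numpy 2.4.6 and matplotlib 3.10.9 was used for sums, shares, promoter letters and figures.

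The genes, the lists and the tests were chosen with earlier results of these data known. Values are named for each gene called in any comparison, the 2 highest genes of each family, subunits with several forms, genes nearest the fold threshold, and, of the other lists, genes called in both UVB comparisons, up to 4 of the largest changes in each, and Tcirg1, Atp6ap1, Atp6ap2, Lgmn, Cst3 and Tfeb. A result that this rule would name among the other lists is not reported here. Ctsc, Cstb, Npc2, Cd68, Cd163, Cd8a, Cd3e, Cd3g, Cd3d, Elovl3, Nkg7 and Prf1 and the members passing at the adjusted p alone were named after their values were seen. Gene coordinates in rn7 are not given, because the reference tables hold GRCr8, the build of the promoter stretches. The alternatives were a pseudocount of 0.1, no filter, a limit of 5 TPM on the mean, median-of-ratios scaling, quantile normalization, only the groups compared, no variance trend, the mean log2 levels of hair keratin and skeletal muscle genes as covariates, a replicate block, no fold threshold, a fold threshold of 1, and each of the 17 rats left out in turn.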

Additional observations from a re-analysis of the deposited data

Results flagged for a closer look

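Within groups of 4 or 5 rats, 10 of 87 sets of values held a rat whose distance to its nearest neighbour, as a part of the whole range, passed Dixon's critical value, where chance gives about 1 in 20. For Atp6v1c2, Control WT 1 lay low at 35.4 TPM (the others at 46.9 to 49.1) and Control P1.hMR 5 lay low at 33.8 TPM (44.0 to 46.7), both near the UVB rats. For Ctsz, Control P1.hMR 4 lay high at 45.9 TPM (33.9 to 36.5). For Atp6v0a1, Control WT 4 lay low at 90.2 TPM, while for Lamp2 Control P1.hMR 1 lay high at 263 TPM and for Lamp1 UVB P1.hMR 3 lay low at 528 TPM. UVB P1.hMR 4 stood apart in 3 genes, high for Ctsh at 88.5 TPM and for Atp6v0a4 at 20.5 TPM and low for Atp6v0e1 at 344 TPM. Control P1.hMR 5 was also low for Atp6v0e1, at 358 TPM.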

How the results depend on the processing

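No value for Ctsz or Atp6v1c2 turned its direction after UVB under any alternative. The direction of Ctsw is not counted here, because it passed the limit on low values through the control rats alone. No difference between genotypes and no interaction was called in the 29 genes under any alternative. In WT rats, the 3 calls after UVB became 1 (Ctsw) with only the groups compared and 1 (Ctsc) with the muscle and hair keratin covariates, 11 with no fold threshold and 0 at a log2 fold change of at least 1. With each rat left out they ran from 2 to 3. The calls of the other lysosomal genes in WT rats, 7 in number, became 4, 1, 31 and 2 under the same settings and ran from 3 (without UVB WT 2) to 9 (without UVB WT 3) with each rat left out. In P1.hMR rats, the 2 calls became 1 with a mean of at least 5 TPM, which leaves out Ctsw, 12 with no fold threshold and 0 at a log2 fold change of at least 1. They ran from 1 (without Control P1.hMR 3, UVB P1.hMR 4 or UVB P1.hMR 5) to 4 (without Control P1.hMR 5). The 7 other lysosomal genes called became 46 and 2 under these fold limits and ran from 6 to 8 with each rat left out. With the covariates, Ctsw was not called in either genotype, nor was Atp6v1c2 in WT rats (log2 fold change -0.32, adjusted p = 0.471), and hair keratin genes fell with UVB themselves. At the adjusted p alone, with the covariates 2 of the 29 genes passed for WT and 5 for P1.hMR, 2 in WT rats with only the groups compared, and 6 without Control WT 2 or without UVB WT 2, against 11 and 12. Fits of fewer rats have fewer degrees of freedom, and otherwise the cause was not tested.

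The labels do not say whether replicate numbers mark pairs. Deviations of rats with the same number had correlations of -0.19 to 0.24 (median -0.0051 over 22 pairs). For rats with different numbers they were -0.26 to 0.18 (median 0.0080 over 85 pairs). With groups of 3 to 5 rats, these values cannot exclude a pairing or a shared batch. A replicate block gave 3 and 2 calls of the 29 genes in WT and P1.hMR rats and 6 and 7 of the other lysosomal genes, and at the adjusted p alone Ctsd and Atp6v0c were lost in WT rats. The median of all genes moved by under 0.1 on the log2 scale under either scaling.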

Other observations

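The letters CACGTG were also counted in promoters of the other lysosomal genes. They stood in 23 of 96 matched promoters (24%), beside 6.42% of all promoters, and most often in the sorting list, with 8 of 17 (47.1%), against 5 of 24 hydrolases (20.8%), 5 of 21 membrane proteins (23.8%) and 1 of 14 accessory factors of the pump (7.14%). These counts are descriptions of letters in a window of the GRCr8 annotation, with no test.

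The 7 genes under the limit stayed low in every group. The highest value among them in any rat was 0.53 TPM, for Atp6v1b1 in Control WT 1, the form of subunit B known from acid-secreting cells, and Atp6v0d2, Atp6v1e2 and Atp6v1g2 reached at most 0.45, 0.20 and 0.43 TPM. Lamp3, known from dendritic cells, was listed at 0 in 16 of 17 rats.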
